A study of Mus musculus with 2 samples.

Results

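The genes described here are 39 genes of DNA replication and S phase, chosen by name from the 27514 genes of the count matrix, and all 39 were found. They were measured by single-cell RNA-seq in endothelial cells sorted from around the dorsal aorta of embryonic day 10.5 mice, on a C57Bl6/J x B6129SF1/J background. One library was made from wild-type (WT) embryos and 1 from SP3-null embryos, which carry a germline deletion of the transcription factor gene Sp3 in every cell. Both genotypes came from crosses of Sp3+/- parents, and embryos of a genotype were pooled before sorting. With 1 library per genotype, the effects of genotype, embryo pool and library preparation cannot be told apart, no test was possible, and each 95% interval covers counting error only.

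Cells copy their genome once per division. Origins are licensed in G1 when the origin recognition complex, Cdc6 and Cdt1 load the MCM helicase. In S phase Cdc45 and the GINS complex turn that helicase on, polymerases copy both strands behind it, and nucleotide synthesis and histone deposition keep pace. Transcription of many of these genes rises at the G1/S boundary under E2F factors. In the embryonic aorta, hemogenic endothelial cells leave the vessel wall and form clusters of dividing blood cells. SP3 is a zinc finger factor of the SP family, which binds GC boxes.

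Promoters of the genes were searched on both strands for letters that E2F or SP factors are known to bind, for CCAAT and for TTTGAA. The search used RefSeq windows of GRCm38.p6 that run from 250 bases before to 50 bases after a gene's start. Windows were found for 33 of the 39 genes. E2F letters (TTTCGCGC, TTTGGCGC, TTTCCCGC or TTTGCCGC) stood in 13 of the 33, 39.4%, against 2.60% of 27025 genes with a window of the same length. The GC box (GGGCGG) stood in 25 of 33, 75.8%, against 38.2% of all genes with a window. Those genes were not filtered by whether they are expressed here. CCAAT stood in 21 of 33, 63.6%, against 41.1%, and TTTGAA, the core of the element of late cell cycle genes, in 4 of 33, 12.1%, against 20.2%. Matches are letters and not bound sites, and the letters of one motif may overlap those of another.

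Of the genes with E2F letters before the start, 4 are shown as examples that differ in their number and strand, in lower case with E2F letters and GC boxes in capitals, each 5′ to 3′ on the strand of the gene. Mcm5 lies on the plus strand at chr8:75109326-75109397, Mcm6 on the minus strand at chr1:128359715-128359845, Cdc6 on the plus strand at chr11:98907983-98908050 and Orc1 on the plus strand at chr4:108579397-108579453.
Mcm5: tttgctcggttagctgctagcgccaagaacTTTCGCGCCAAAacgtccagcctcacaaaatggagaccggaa
Mcm6: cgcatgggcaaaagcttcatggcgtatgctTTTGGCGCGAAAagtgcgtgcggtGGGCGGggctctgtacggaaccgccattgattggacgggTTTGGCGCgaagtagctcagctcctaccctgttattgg
Cdc6: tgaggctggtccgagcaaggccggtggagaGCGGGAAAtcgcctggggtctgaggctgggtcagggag
Orc1: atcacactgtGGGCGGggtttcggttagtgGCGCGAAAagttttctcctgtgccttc
The Mcm5 stretch holds 2 overlapping matches and the Mcm6 stretch 3 matches with 1 GC box between them. Cdc6 and Orc1 hold 1 match each, both on the opposite strand.

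The WT library held 4451 cells with 79456081 UMIs (unique molecular identifiers, each standing for 1 captured transcript) and the SP3-null library 3954 cells with 71154918 UMIs. Classes were used as the authors assigned them, by projecting cells onto an existing reference atlas. The path to blood starts in arterial endothelium (AE), which is split into Wnt-high and Wnt-low cells. Conflux AE follows, then pre-HE and HE, the endothelium about to become and already hemogenic, and last the intra-aortic clusters (IAC). Venous endothelium (VE), split in the same way, and other endothelium lie off that path. HE was the smallest class, with 59 and 40 cells. The deposited AE classes hold 939 (WT) and 922 (SP3-null) cells, many more than the study lists for arterial endothelium. The classes from conflux AE to IAC are close to the numbers the study lists. The reason was not found, and all deposited AE cells were used in the AE sums here. Libraries shared 5 barcodes, and no doublet caller was applied, so that doublets remain. Endothelial markers (Cdh5, Pecam1, Esam, Kdr, Tek and Emcn) summed to 1309 to 4443 CPM (counts of UMIs scaled to the total of a class) in the endothelial classes and HE and to 414 and 404 CPM in IAC. Arterial markers summed to 684 to 829 CPM in the Wnt-high and Wnt-low AE sums and to 2469 (WT) and 2384 CPM (SP3-null) in conflux AE, and venous markers to 448 to 507 CPM in the VE sums.

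The 39 genes held 0.280% of all UMIs in the WT and 0.277% in the SP3-null library, and Dut, which removes dUTP from the nucleotide pool, supplied 12.2% of them. Their summed level depended on the class. In the WT library it was lowest in conflux AE at 1284 CPM and next in pre-HE at 1781 CPM. Wnt-high AE stood at 2121 and Wnt-low AE at 2462 CPM. Wnt-high VE at 2811, Wnt-low VE at 2964, HE at 2972 and other endothelium at 3013 CPM followed, and IAC was highest at 3367 CPM. In this order the neighbours Wnt-low VE, HE and other endothelium had overlapping intervals. The SP3-null library gave 1332 CPM in conflux AE, 1523 in pre-HE, 1831 in Wnt-high AE and 2182 in Wnt-low AE. HE was at 2728, Wnt-low VE at 2919, Wnt-high VE at 2924, other endothelium at 3079 and IAC at 3501 CPM. Gene by gene, 34 of 39 were lowest in conflux AE and the other 5 in pre-HE in the WT library, and 24 were highest in IAC. In the SP3-null library 28 were lowest in conflux AE, 10 in pre-HE and 1 (Rfc3) in Wnt-high AE, and 25 were highest in IAC. The classes were made from the same transcriptomes, so these levels are descriptions.

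**Figure D1:**
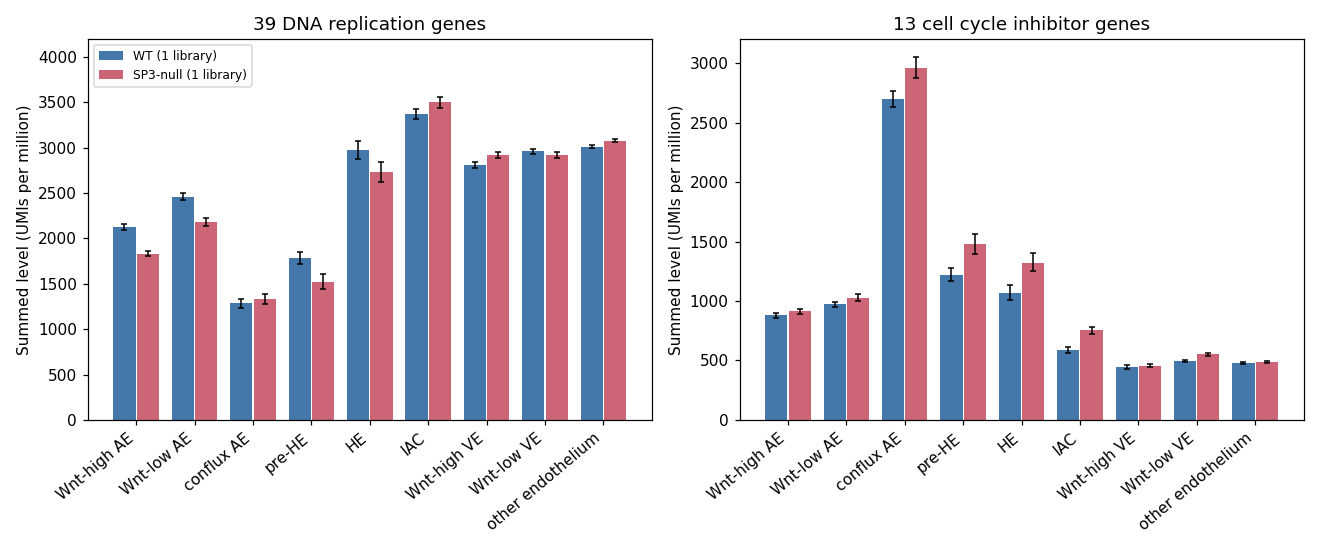
Bars give the summed level in CPM for the 39 replication genes (left) and 13 cell cycle inhibitor genes (right) in 9 classes of 1 WT and 1 SP3-null library, with 95% counting intervals. Replication genes are lowest in conflux AE (1284 and 1332) and highest in IAC (3367 and 3501), and inhibitors are highest in conflux AE (2697 and 2962).

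Conflux AE, the stage next after AE, was compared with AE within each library. The summed level was lower by a log2 ratio of -0.84 (95% interval -0.89 to -0.78) in the WT and -0.56 (-0.63 to -0.49) in the SP3-null library. At least 1.5-fold lower were 30 of 39 genes in the WT, against 11.7% of all 8833 genes tested (at least 100 UMIs over both sums), and 16 of the 38 tested in the SP3-null library, against 11.4%. None was 1.5-fold higher in either, where 10.2% and 11.1% of all genes were. The median over the genes was -0.85 in the WT, with a median of all genes of -0.01, and -0.55 in the SP3-null library, again with -0.01 for all genes. Conflux cells were shallower than AE cells, with a median of 9248.5 against 13395 UMIs in the WT and 8850 against 13756.5 in the SP3-null library. With each cell thinned to 5000 UMIs, fewer genes passed the UMI minimum, and 18 of 28 in the WT were 1.5-fold lower, against 12.4% of all genes at that depth. In the SP3-null library 12 of 23 were, against 12.1%.

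By role, the licensing genes with the most UMIs were Mcm3, a subunit of the helicase ring, and Orc6 of the origin recognition complex. Mcm3 (chromosome 1, 20802966 to 20820312, GRCm38.p6, as for all gene positions here) went from 145.1 CPM in AE to 91.1 CPM in conflux AE of the WT and from 136 to 94.4 CPM in the SP3-null library. Orc6 went from 129 to 84.5 CPM and from 118 to 93.7 CPM. Both were thus lower in conflux AE of either library. Cdc6, the loader of the helicase ring, had the lowest ratios of the role, -1.37 (-2.12 to -0.71) in the WT and -1.06 (-2.08 to -0.19) in the SP3-null library, where conflux AE held 19 and 11 UMIs of it. Mcm6 in the WT (-0.19, -0.42 to 0.03) and Mcm5 in the SP3-null library (-0.28, -0.70 to 0.11) had the highest ratios, and their intervals spanned 0.

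Among the genes that activate the helicase, Gins2 was at -0.69 (-1.05 to -0.35) in the WT and -0.39 (-0.84 to 0.03) in the SP3-null library, and Gins1 at -1.07 and -0.43. Cdc45, which joins the ring to the GINS complex, was lowest in the WT at -1.45 (-2.34 to -0.68) and stood at -0.39 (-1.26 to 0.36) in the SP3-null library. Gins3 had the highest WT ratio, -0.50, and the lowest SP3-null ratio, -0.95. Intervals as wide as these do not separate the libraries for any gene of this role. Of the primase and polymerases, Prim1, the catalytic primase subunit, was at -1.12 (-1.69 to -0.60) and -0.80 (-1.46 to -0.21). Pola1, the catalytic subunit of polymerase alpha, was at -1.38 (-2.11 to -0.74) in the WT and -0.46 (-1.15 to 0.17) in the SP3-null library, Pold1 of polymerase delta at -0.57 and -0.83, and Pola2 at -0.56 and -0.25.

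Clamp loader subunits differed among themselves in both libraries. Rfc5 was lowest of its role, at -1.23 (-1.81 to -0.69) and -1.38 (-2.17 to -0.68), and Rfc3 highest, at -0.16 (-0.49 to 0.16) and -0.13 (-0.54 to 0.25). Their intervals did not overlap in either library. Rfc2 stood between them at -0.54 and -0.58 and Rfc4 at -0.97 and -0.85. For the Okazaki fragment genes, Lig1, the ligase that seals the fragments, was at -0.93 and -0.57, and Fen1, the flap nuclease, at -0.35 and -0.53.

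Nucleotide supply held the gene with the lowest ratio of all. Tk1, thymidine kinase (chromosome 11, 117815519 to 117826087), went from 35.9 CPM in AE to 6.10 CPM in conflux AE of the WT, a log2 ratio of -2.56 (-3.48 to -1.77) from 13 UMIs, and from 21.3 to 12.1 CPM in the SP3-null library, -0.81 (-1.59 to -0.13). Rrm2, the S-phase subunit of ribonucleotide reductase, was at -1.42 (-1.75 to -1.11) and -1.10 (-1.50 to -0.72). Dut was at -0.75 and -0.48, and Tyms, thymidylate synthase, at -1.08 (-1.34 to -0.83) and -0.42 (-0.70 to -0.15), intervals that do not overlap between the libraries. Of the histone and chromatin genes, Slbp, which binds histone mRNA, was at -0.78 and -0.41, and Uhrf1, which maintains DNA methylation, at -1.04 and -0.86. Chaf1a and Chaf1b of the chromatin assembly factor were at -0.71 and -1.02 in the WT and -1.31 and -1.35 in the SP3-null library.

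IAC lay at the other end of the range. Their summed level was above AE by a log2 ratio of 0.55 (0.53 to 0.58) in the WT and 0.84 (0.80 to 0.87) in the SP3-null library. At least 1.5-fold higher were 19 of 39 genes in the WT, against 18.8% of all genes, and 26 of 38 in the SP3-null library, against 19.7%. None was 1.5-fold lower, where 24.9% and 26% of all genes were. The levels that make up the ratios were 3367 and 3501 CPM in IAC and 2292 and 1962 CPM in AE, so that the libraries lay further apart in AE than in IAC. IAC cells were deeper, with medians of 31009 and 30343 UMIs. At 5000 UMIs per cell the ratios were 0.64 and 0.78. At that depth 17 of 30 WT genes were 1.5-fold higher, against 15.7% of all genes, and 16 of 27 SP3-null genes, against 16.1%.

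Mcm10 had the highest ratio of IAC over AE in both libraries. Mcm10, which acts as the helicase is activated (chromosome 2, 4990724 to 5012791), went from 13.4 to 41.7 CPM in the WT, a log2 ratio of 1.63 (1.33 to 1.93), and from 7.56 to 44.2 CPM in the SP3-null library, 2.55 (2.18 to 2.92). Cdt1, the licensing factor destroyed in S phase, was at 1.31 (1.05 to 1.56) in the WT, from 21.5 to 53.1 CPM. In the SP3-null library it was at 1.62 (1.34 to 1.91), from 17.3 to 53.4 CPM. In IAC themselves the libraries had nearly the same level of both genes. Mcm3 was at 0.43 and 0.52 and Orc6 at 0.01 (-0.13 to 0.15) and 0.26. Gins2 was at 0.50 and 0.73, Cdc45 at 0.35 and 0.72, and Gins3 at -0.33 (-0.96 to 0.26) and 0.18 (-0.36 to 0.69).

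Of the polymerases, Pola1 was at 1.11 and 1.33, Prim1 at 0.82 and 1.05, and Pole, the leading strand polymerase, at 0.95 (0.59 to 1.31) and 1.79 (1.38 to 2.21), while Pola2 stood at 0.00 (-0.39 to 0.39) and 0.39. Rfc5, the lowest clamp loader subunit in conflux AE, was the highest in IAC, at 1.13 and 1.33, and Rfc3 was the lowest at 0.10 (-0.13 to 0.33) and 0.40. Rfc2 was at 0.75 and 0.88 and Rfc4 at 0.50 and 0.58. Fen1 was at 0.70 and 0.85, and Lig1 at 0.15 and 0.39.

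In nucleotide supply, Dut was highest at 0.97 (0.90 to 1.05) and 1.29 (1.21 to 1.37). Rrm2 was not above AE in the WT (-0.17, -0.32 to -0.01) and was at 0.39 (0.22 to 0.56) in the SP3-null library. Tyms was at 0.07 and 0.25. In the WT, Rrm2 and Tyms thus lay near their AE level in IAC and well below it in conflux AE. Chaf1a was at 1.07 and 1.24, Uhrf1 at 0.70 and 1.08, Slbp at 0.38 and 0.56, and Chaf1b at 0.18 and 0.66.

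Pre-HE and HE lay between these stages. Pre-HE stood below AE by -0.36 (-0.42 to -0.31) in the WT and -0.37 (-0.45 to -0.29) in the SP3-null library. Pre-HE cells were shallower than AE cells, with medians of 9257.5 and 9163 UMIs. At 5000 UMIs per cell pre-HE stood at 1543 (WT) and 1568 CPM (SP3-null), against 2190 and 1880 CPM in AE, a larger gap in the WT. In the full sums 9 of 38 genes were at least 1.5-fold lower in the WT, against 12.1% of all genes, and 10 of 38 in the SP3-null library, against 13.8%. None was 1.5-fold higher, where 14.8% and 19.5% of all genes were. HE stood above AE by 0.37 (0.32 to 0.43) and 0.48 (0.42 to 0.54), with 10 of 39 and 16 of 38 genes 1.5-fold higher, against 14% and 19.3% of all genes, and none 1.5-fold lower, where 17.6% and 18.7% were.

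Dut followed the sum at both stages. In pre-HE it was at -0.56 (-0.75 to -0.39) in the WT and -0.68 (-0.95 to -0.42) in the SP3-null library, and in HE at 0.77 (0.63 to 0.91) and 0.76 (0.60 to 0.92). Lowest in pre-HE were Gins1 in the WT (-1.14, -2.07 to -0.35) and Prim1 in the SP3-null library (-0.95, -1.87 to -0.16), each from 13 UMIs. Highest in HE were Cdt1 in the WT (0.83, 0.34 to 1.30) and Mcm10 in the SP3-null library (1.56, 0.79 to 2.26). Mcm3 in HE was at 0.13 (-0.09 to 0.35) and 0.01 (-0.26 to 0.28), so that not every abundant gene was above AE there.

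VE stood above AE by 0.34 (0.32 to 0.36) in the WT and 0.57 (0.55 to 0.59) in the SP3-null library. All these ratios share the AE sum of their library, so they move together where AE differs.

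**Figure D2:**
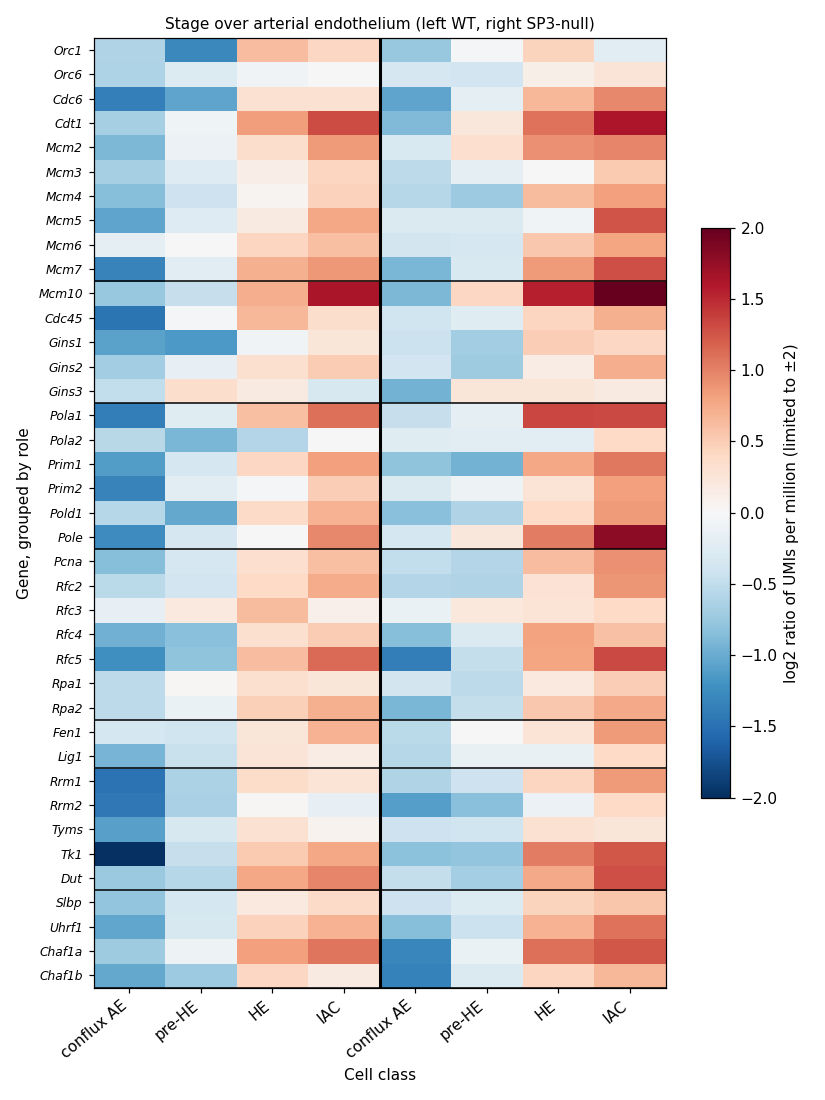
Color gives the log2 ratio of each of the 39 genes (rows, grouped by role) in conflux AE, pre-HE, HE and IAC over AE, for the WT (left) and SP3-null (right) library, limited to 2 in either direction. Conflux AE is blue throughout, with Tk1 of the WT at -2.56, and IAC is mostly red, with Mcm10 at 1.63 and 2.55.

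Related lists showed how far the pattern reached. A list of 48 other replication genes, which does not share a gene with the 39, was at -0.78 and -0.56 in conflux AE over AE and at 0.35 and 0.56 in IAC. At least 1.5-fold lower in conflux AE were 24 of the 46 tested in the WT, against 11.7% of all genes. In the SP3-null library 21 of 45 were, against 11.4%. A list of 24 mitosis genes was lower still in conflux AE, at -1.52 (-1.59 to -1.46) and -0.94 (-1.01 to -0.88). Of its 24 genes, 24 and 22 were 1.5-fold lower, against the same 11.7% and 11.4% of all genes. In IAC the mitosis list was close to AE, at 0.16 and 0.15. The summed level of 13 inhibitors of the cycle went the other way. It was 925 (WT) and 956 CPM (SP3-null) in AE and 2697 and 2962 CPM in conflux AE. Most of that rise was Cdkn1c, the CDK inhibitor p57. Cdkn1c went from 529 to 2324 CPM in the WT and from 509 to 2587 CPM in the SP3-null library. Of 10 inhibitor genes tested in the WT, 1 was 1.5-fold higher, against 10.2% of all genes, and 2 lower, against 11.7%. In the SP3-null library 3 of 10 were higher, against 11.1%, and 3 lower, against 11.4%. The inhibitor genes thus showed no shared direction. Neural markers (Sox2, Tubb3, Elavl3, Sox10 and Stmn2) were also highest at these stages. They summed to 610 CPM (WT) and 467 CPM (SP3-null) in conflux AE and to 840 and 523 CPM in pre-HE against 81.9 and 72.5 CPM in AE, and macrophage markers in IAC, at 78.0 and 149 CPM. Their part in the levels of the replication genes was not tested.

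The second question was whether the genes differ between SP3-null and WT endothelium. Sp3 itself was at 46.3 CPM in the WT and 35.6 CPM in the SP3-null sum, a 3′ count that does not check the genotype, since where the counted end lies relative to the deletion is not given in the sources used here. Summed over the 6 endothelial classes (AE, VE, conflux AE and pre-HE), the 39 genes were at 2569 and 2486 CPM, a log2 ratio of -0.05 (-0.06 to -0.04), with a median over genes of -0.05 against -0.02 for all genes. At least 1.2-fold lower were 4 of 39 genes, 10.3% of them against 10.5% of all 10986 genes tested, and none was 1.2-fold higher, where 5.45% of all genes were. The 4 were Mcm10 (-0.34, -0.51 to -0.18), Pole (-0.33, -0.51 to -0.15), Tk1 (-0.28, -0.39 to -0.18) and Chaf1b (-0.28, -0.39 to -0.17). A share this close to that of all genes is no result about the replication genes. Pcna, the sliding clamp, had the highest ratio, 0.13 (0.05 to 0.21), and a named pseudogene, Pcna-ps2, may share reads with it.

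The classes that enter the sum did not share 1 ratio. In AE the 39 genes were at 2292 CPM in the WT and 1962 CPM in the SP3-null library, a log2 ratio of -0.22 (-0.25 to -0.20). In VE they were at 2908 and 2922 CPM, 0.01 (-0.01 to 0.02), and at 0.05 (0.01 to 0.08) with each cell thinned to 5000 UMIs. With 1 library per genotype the difference between these ratios could not be tested. In AE 17 of 39 genes were at least 1.2-fold lower, against 11.8% of all 9694 genes tested, and 1 (Gins3) was 1.2-fold higher, against 6.49%. The lower genes were Cdc6, Cdt1 and Mcm5 of licensing, Mcm10, Cdc45, Gins1 and Gins2 of helicase activation, Pola1, Prim2 and Pole of the polymerases, Rrm1, Rrm2, Tyms and Tk1 of nucleotide supply, and Uhrf1, Chaf1a and Chaf1b of chromatin. In VE none of 39 was 1.2-fold lower or higher, against 8.9% and 5.67% of all genes. The AE median over genes was -0.23, beside -0.03 for all genes, and 38 of 39 ratios were below 0, with the interval below 0 for 26. It was -0.22 over the 25 genes with a GC box in the promoter window and -0.19 over the 8 without. A link between the GC box and the ratio was not tested.

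Both AE classes showed the lower level in the full sums, though Wnt-low AE did not in every split of the cells given below. Wnt-high AE was at 2121 and 1831 CPM (-0.21, -0.24 to -0.18), with 15 of 38 genes 1.2-fold lower against 13.2% of all genes and 1 higher against 6.46%. Wnt-low AE was at 2462 and 2182 CPM (-0.17, -0.21 to -0.14), with 13 of 38 genes 1.2-fold lower against 12.5% and none higher against 7.08%. In Wnt-high VE, 2 of 39 were lower against 11.9% and 1 higher against 5.77%, and the sum was at 0.06 (0.03 to 0.08). In Wnt-low VE, 1 was lower against 9.36% and none higher against 5.65%, with the sum at -0.02 (-0.04 to -0.00), below 0 as in AE but closer to it, and at 0.02 (-0.02 to 0.06) at 5000 UMIs per cell. Other endothelium held no gene past 1.2-fold, against 9.54% lower and 5.34% higher among all genes. Its sum was at 0.03 (0.02 to 0.04), and at 0.02 (-0.01 to 0.05) at 5000 UMIs per cell.

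The small classes gave fewer genes above the minimum. Conflux AE had 1 of 19 genes lower against 13.8% and 5 higher against 11.7%, with the sum at 0.05 (-0.03 to 0.14). Pre-HE had 10 of 18 lower against 16.5% and none higher against 16%, with the sum at -0.23 (-0.32 to -0.13). HE had 7 of 22 lower against 15.2% and 3 higher against 16.6%, at -0.12 (-0.20 to -0.05). IAC had 2 of 37 lower against 14.3% and 3 higher against 8.48%, at 0.06 (0.02 to 0.09). At 5000 UMIs per cell the pre-HE ratio was 0.02 (-0.13 to 0.18), that of HE -0.01 (-0.18 to 0.16) and that of IAC -0.07 (-0.17 to 0.02), so that these classes show no direction that holds at equal depth per cell. The ratio of AE at that depth was -0.22 (-0.27 to -0.18).

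**Figure D3:**
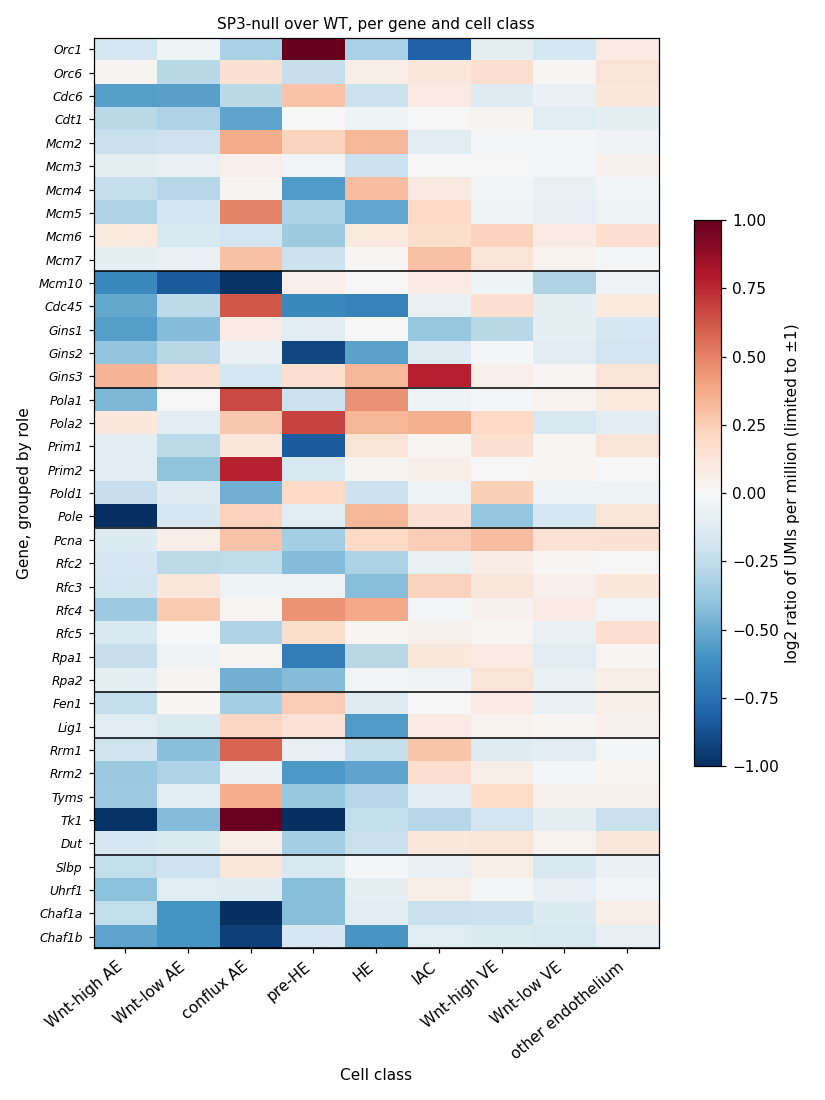
Color gives the log2 ratio, SP3-null over WT, of each of the 39 genes (rows, grouped by role) in the 9 classes, limited to 1 in either direction. Both AE columns are mostly blue, with Pole of Wnt-high AE at -1.10, and the VE and other columns are pale. Of genes with at least 100 UMIs, 12 of 19 lie above 0 in conflux AE, and 16 of 18 in pre-HE and 14 of 22 in HE lie below 0.

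Gene by gene in AE, the licensing factors ranged from Cdc6, with 23.1 and 15.5 CPM (-0.58, -0.83 to -0.33), to Mcm6, with 98.4 and 97.8 CPM (-0.01, -0.12 to 0.10). Mcm3 was at 145.1 and 136 CPM (-0.09, -0.18 to -0.00) and Orc6 at 129 and 118 CPM (-0.13, -0.23 to -0.04). The role as a sum was at -0.16 (-0.20 to -0.11). Helicase activators had the lowest sum of all roles, -0.39 (-0.50 to -0.28). Mcm10 had the lowest ratio of all 39 genes, with 13.4 and 7.56 CPM from 198 and 107 UMIs (-0.83, -1.18 to -0.48), and Gins1 (-0.55) and Gins2 (-0.36, -0.51 to -0.21) were below 0 as well. Gins3, a subunit of the same complex, was at 8.63 and 10.4 CPM (0.27, -0.08 to 0.62).

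Among polymerases, Pole was at 12.4 and 7.70 CPM (-0.68, -1.04 to -0.33), and most of that lay in Wnt-high AE (-1.10, -1.60 to -0.60) rather than Wnt-low AE (-0.17, -0.69 to 0.34), whose intervals overlap slightly. Prim1 was at -0.21 and Pola1 at -0.27, and Pola2 (-0.04, -0.30 to 0.22) was close to 0. The clamp, its loader and RPA, the single strand binding protein, were the role nearest to 0, at -0.12 (-0.18 to -0.06), with Rfc2 at -0.21 (-0.34 to -0.08), Rfc4 at -0.10 and Rfc3 at -0.07. That role was lower in Wnt-high AE (-0.19, -0.27 to -0.11) but not in Wnt-low AE (0.02, -0.07 to 0.11). Lig1 and Fen1 were both at -0.16.

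Nucleotide supply was at -0.30 (-0.34 to -0.25). Tk1 went from 35.9 to 21.3 CPM (-0.75, -0.96 to -0.54), Dut from 259 to 223 CPM (-0.21, -0.28 to -0.14) and Tyms from 134.9 to 110 CPM (-0.29, -0.39 to -0.20). Tk1 was lower in both AE classes, at -0.98 (-1.27 to -0.70) and -0.43 (-0.74 to -0.13), and in VE at -0.15 (-0.28 to -0.03). In the histone and chromatin role Slbp was at -0.25, Uhrf1 at -0.31 (-0.44 to -0.18) and Chaf1b, with 31.4 and 20.6 CPM, at -0.60 (-0.82 to -0.39). Of the 4 genes with the lowest AE ratios, Mcm10, Tk1, Pole and Chaf1b, each was also below 0 in VE, at -0.20 (-0.40 to -0.01), -0.15, -0.24 (-0.46 to -0.02) and -0.17 (-0.30 to -0.03). Pcna, Tyms, Dut and Mcm6 had VE intervals above 0, with Pcna at 0.20 (0.10 to 0.30).

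**Figure D4:**
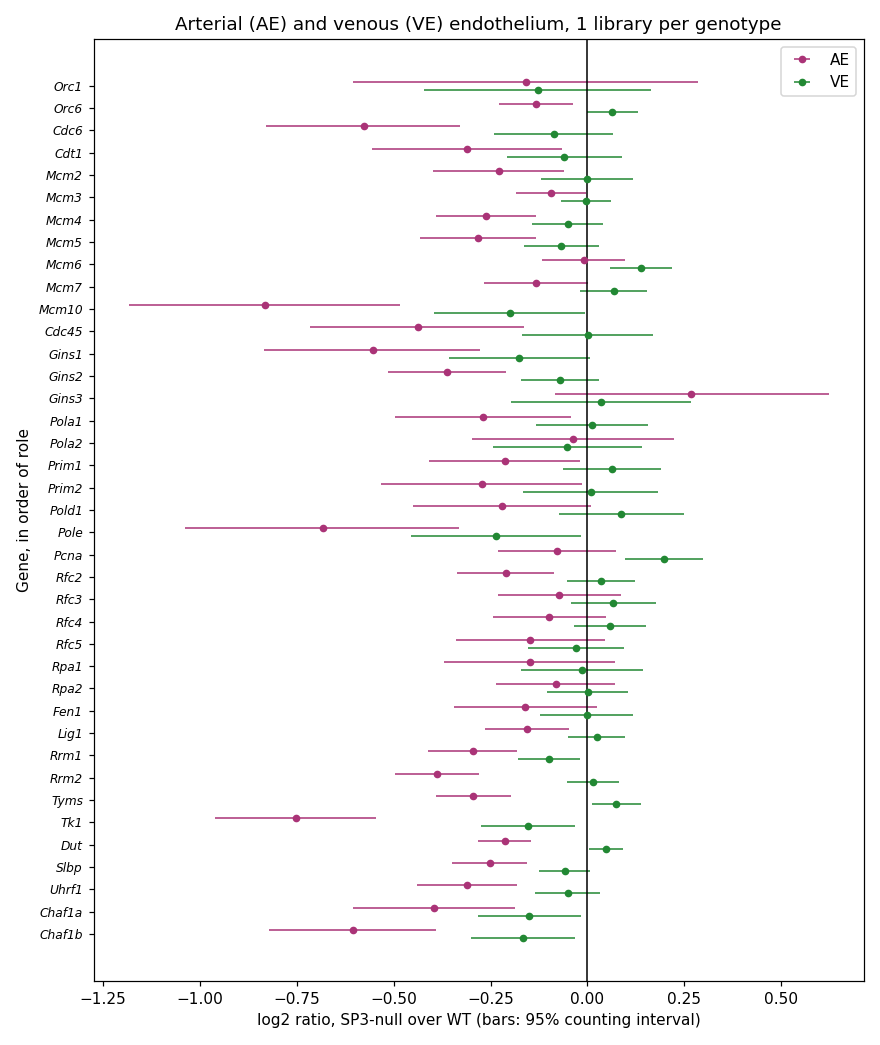
Points give the log2 ratio, SP3-null over WT, of each gene in AE (purple) and VE (green), with 95% counting intervals and 1 library per genotype. AE points lie left of 0 for 38 of 39 genes, lowest for Mcm10 at -0.83, and VE points lie about 0, between -0.24 and 0.20.

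The AE ratio was followed through splits of the cells, chosen after the data were seen. It was -0.24, -0.14 and -0.23 in cells with under 10000, 10000 to 20000 and over 20000 UMIs, and -0.22 without the 3 cells of each library with the most UMIs of these genes. In the middle bin Wnt-high AE was at -0.18 (-0.24 to -0.12) and Wnt-low AE at -0.04 (-0.10 to 0.02). Below and above that bin, both classes had intervals below 0. In cells with no UMI of a blood, erythroid, macrophage, neural, mesenchyme or epithelium marker the AE ratio was -0.21 (-0.25 to -0.17). In cells with Xist and no Y-linked UMI it was -0.18 (-0.22 to -0.15), and in cells with a Y-linked and no Xist UMI -0.32 (-0.36 to -0.28). In Wnt-high AE these values were -0.10 (-0.14 to -0.05) and -0.41 (-0.46 to -0.36), and in Wnt-low AE -0.19 and -0.20. Wnt-high AE held 191 WT and 316 SP3-null cells of the first kind and 168 and 182 of the second. The part of embryo sex in the AE ratio was not tested. Xist was higher in the SP3-null AE sum (531 against 429 CPM). Erythroid markers went from 52.1 CPM in WT to 90.6 CPM in SP3-null cells of Wnt-high AE and from 114 to 36.0 CPM in Wnt-low AE. The part of erythroid RNA in the AE ratio was not tested.

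Cells with several mitosis transcripts were set apart too. They are not a count of cells in mitosis, since 53.6% of WT and 42.4% of SP3-null AE cells and 75.1% and 70.2% of VE cells held at least 5 of the 24 genes at 5000 UMIs. Mitosis genes as a list were at -0.11 (-0.13 to -0.09) in AE and -0.01 in VE. Without cells that held a UMI of at least 5 of the 24 mitosis genes the AE ratio was -0.05 (-0.10 to 0.00), but that filter takes out deep cells. By class it was -0.09 (-0.16 to -0.02) in Wnt-high AE and 0.09 (-0.00 to 0.18) in Wnt-low AE. With each cell first thinned to 5000 UMIs the AE ratio was -0.27 (-0.34 to -0.20) without such cells and -0.08 (-0.14 to -0.02) among them alone. Without such cells at that depth, Wnt-high AE was at -0.19 (-0.28 to -0.09) and Wnt-low AE at -0.24 (-0.34 to -0.14). The size of the AE ratio, and in Wnt-low AE its direction, thus depended on how these cells were picked. The 48 other replication genes were at -0.19 (-0.21 to -0.17) in AE and at -0.02 in VE. In AE 15 of 48 were 1.2-fold lower, against 11.8% of all genes, and 1 higher, against 6.49%. Inhibitors were at 0.05 (0.01 to 0.08) in AE, where Cdkn1a, the CDK inhibitor p21, was at 86.8 CPM in the WT and 138 CPM in the SP3-null sum (0.67, 0.57 to 0.77). Cdkn1a was largely a Wnt-high AE transcript, at 163 and 212 CPM there against 11.8 and 14.0 CPM in Wnt-low AE, and Wnt-high cells made up more of the SP3-null AE sum, 574 of 922 cells against 467 of 939.

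A sum cannot tell fewer cells in S phase from less RNA of these genes per cell. The genes were also counted in single cells, but a limit set on the same counts cannot separate these readings either. Each cell with at least 5000 UMIs was thinned to 5000, which left out 464 of 2639 WT and 325 of 2401 SP3-null endothelial cells. Dut was seen in 55.7% of WT and 51.9% of SP3-null Wnt-high AE cells and in 88.9% and 89.3% of IAC. Orc1, among the sparsest, was seen in 3.09% and 2.23% of Wnt-high AE cells and in 4.76% and 2.91% of IAC. These are shares of cells with a UMI, and the part that free RNA supplies was not estimated, as no class here is known to lack the genes. Of the classes, conflux AE had the lowest median share over genes, 9.29% in the WT and 9.43% in the SP3-null library.

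Cells with a UMI of at least 10 of the 39 genes were called replication-high, which cuts a continuous range and is not a phase call. They made up 14.3% and 11.3% of conflux AE cells, 18.6% and 13.5% of pre-HE, 29.9% and 24.9% of Wnt-high AE and 40.4% and 33.9% of Wnt-low AE. Their share was 54.8% and 56.8% in Wnt-high VE, 56.6% and 56.3% in Wnt-low VE, 62.7% and 61.0% in other endothelium, 49.1% and 41.7% in HE and 69.8% and 66.0% in IAC. In AE as a whole 35.2% of WT cells (31.8% to 38.6%) and 28.3% of SP3-null cells (25.2% to 31.6%) were replication-high, and SP3-null minus WT was -6.83 points (-11.5 to -2.15). The VE share was 56.0% and 56.5%, a difference of 0.58 points (-3.58 to 4.74), and the difference was over the 6 endothelial classes -2.14 points (-5.14 to 0.87). Each AE class taken alone had an interval that reached 0 (-4.95, -11.1 to 1.13, and -6.47, -13.8 to 1.00). Wnt-high AE, the class with the lower share, made up 493 of 794 SP3-null but 388 of 782 WT cells. With both AE classes weighted alike, a calculation added after the data were seen, the difference was -5.71 points (-10.5 to -0.89), and the ratio of the summed level was -0.19 in place of -0.22. Of AE cells, 99 of 782 in the WT and 95 of 794 in the SP3-null library had 9 or 10 genes and so lay next to the limit. Without thinning the AE shares were 67.3% and 63.1%.

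Replication-high cells carried much the same number of UMIs of these genes whatever their class, a mean of 16.6 (conflux AE) to 20.3 (IAC) in the WT classes and 17.2 to 22.5 in the SP3-null classes, which the limit of 10 genes partly sets. The other cells carried 4.27 (conflux AE) to 9.47 (IAC) in the WT. In AE the means were 18.5 and 17.7 in replication-high cells and 6.84 and 6.14 in the others. The SP3-null AE library was thus lower both in its share of such cells and in the mean on either side of the limit. Less RNA per cell could lower all of these values, so they do not tell it from fewer cells in S phase.

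**Figure D5:**
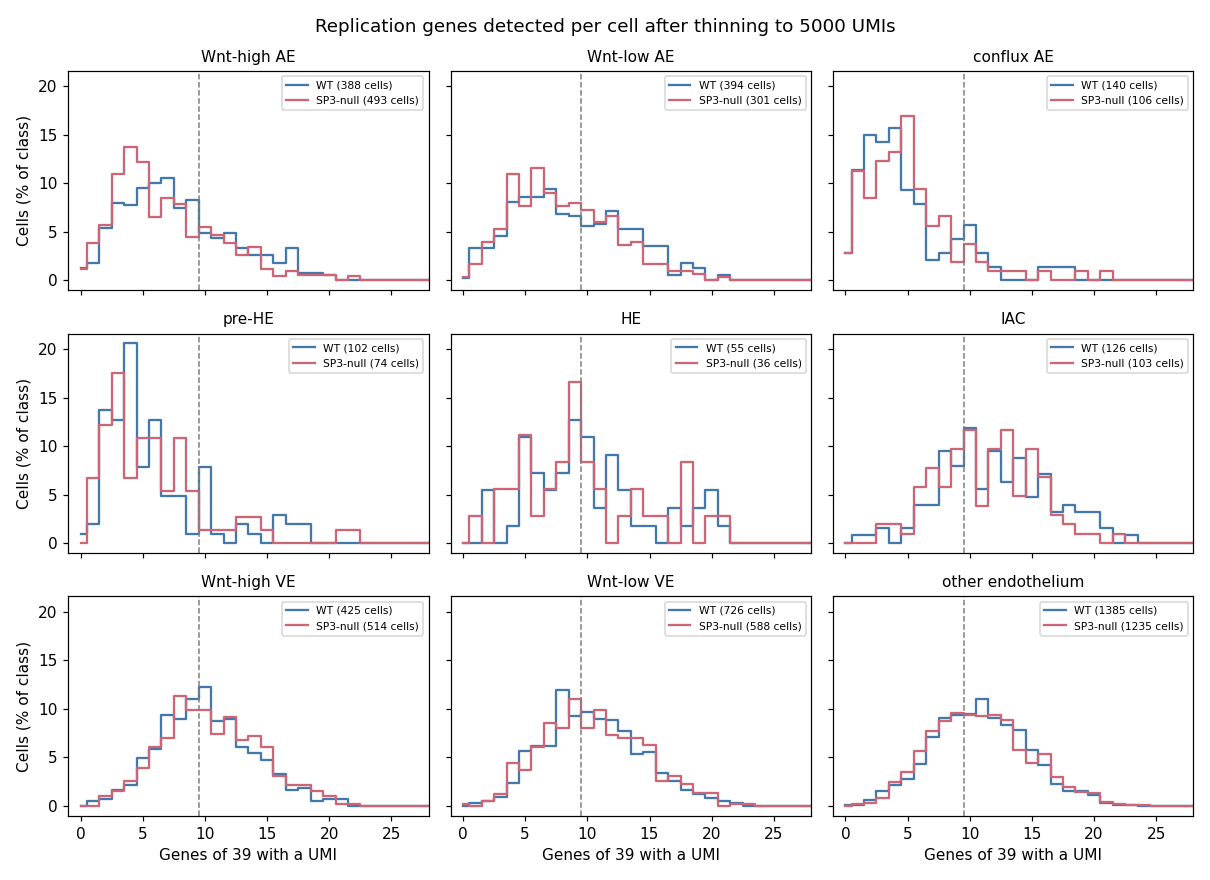
Each panel gives, for 1 class, the percent of cells (y) by the number of the 39 genes with a UMI (x) after thinning to 5000 UMIs, for the WT (blue) and SP3-null (red) library, with the limit for replication-high cells dashed. Conflux AE and pre-HE peak at low numbers with a thin tail, VE, other endothelium and IAC peak near or past the limit, and the libraries lie close to each other outside AE and the small classes.

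Across 4251 thinned endothelial cells, centred within class and library, Rrm2 followed the sum of the other 38 genes most closely (r = 0.41), then Dut (0.33), Orc6 (0.29), Slbp (0.28) and Lig1 (0.28), and Orc1 least (0.03). These cells share 2 libraries and counts are sparse, so low values are no finding. The 10 genes outside the replication and mitosis lists whose counts were most like the sum, of 4956 ranked, included the histone genes Hist1h2ae (0.41), Hist1h1b (0.35), Hist1h2ap (0.29) and Hist1h1e (0.25). The others were Ncapg2 (0.25), Fam111a (0.25), Fbxo5 (0.24), Dek (0.24), Wdr76 (0.24) and Hat1 (0.23). The sum of the 39 genes had a correlation of -0.06 with the sum of the mitosis genes over the same cells.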

How the data were processed

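The authors sorted Ter119-negative, CD41-low or negative CD31+ CD144+ ESAM+ cells, captured each genotype once (10x 3′ kit, version 3), and aligned reads with Cell Ranger (version not given in the sources used here) to mm10 (GRCm38). The authors deposited unnormalized UMI counts, with a class and library label for each cell. Deposited mitochondrial fractions, which the authors computed per cell, served only as a quality check, and the size factor score the authors deposited was not used. UMIs were summed per library and class and divided by the class total to give CPM. Intervals (95%) are exact Poisson for CPM, exact conditional for ratios and Clopper-Pearson for shares. Those for differences of shares combine the Clopper-Pearson bounds by the square-root rule of Newcombe. All cover counting error only. Fold thresholds were 1.2 between genotypes and 1.5 between stages, for genes with at least 100 UMIs over both sums. Totals were 79456081 and 71154918 UMIs. Named per role were the 2 genes with the most UMIs and those with the highest and lowest ratio, beside all genes as counts. The Tk1 classes, the Mcm10, Pole and Chaf1b rows for VE and genes with VE intervals above 0 were singled out after their values were seen. The genes and lists were chosen with earlier results of these data known. Scripts were tested on simulated data. Python 3.11.15, numpy 2.4.6, scipy 1.17.1, edgeR 4.0.16 and DESeq2 1.42.0 (size factors only) were used.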

Additional observations from a re-analysis of the deposited data

Results flagged for a closer look

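The summed level of the replication genes was lower in both arterial classes and higher in 1 of the 2 venous classes. The log2 ratio, SP3-null over WT, was -0.21 in Wnt-high AE and -0.17 in Wnt-low AE, and 0.0568 in Wnt-high VE, each with a counting interval that left out 0 both in the full sum and at 5000 UMIs per cell. Wnt-low VE was at -0.0219 (-0.0423 to -0.0016), the direction of AE, in the full sum and at 0.021 (-0.02 to 0.062) at 5000 UMIs per cell. Of the venous classes, only Wnt-high VE thus had an opposite direction that held at both depths. The Wnt-low VE ratio was still smaller in size than that of either AE class. The difference between the classes was not tested, since each genotype has 1 library. SP3-null Wnt-high VE cells were also deeper, with a median of 19230 against 14475.5 UMIs, and at 5000 UMIs per cell their ratio was 0.096 (0.046 to 0.15).

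The pseudogene Pcna-ps2, which is not among the 39 genes, held 513 UMIs over all cells, above the limit of 3 that a count of 0 allows, beside 9738 UMIs of Pcna. Reads of near-identical copies can be divided between them or dropped, so the level of Pcna is uncertain.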

How the results depend on the processing

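No paired analysis was possible because each genotype has 1 library and the labels give no replicate numbers. The summed SP3-null over WT ratio of the 6 endothelial classes, -0.05, was -0.0281 with edgeR TMM factors, -0.0272 with DESeq2 size factors, -0.0288 without the 5% of cells with the most UMIs, -0.0269 at 5000 UMIs per cell, -0.0787 with classes weighted alike, -0.061 without the 5 genes with the most UMIs, -0.0164 over all cells and -0.22 in AE alone (median over genes -0.23). It turned to 0.0067 in VE alone and to 0.051 without cells that held at least 5 of the mitosis genes (chosen after the data were seen). The count of genes 1.2-fold lower, 4, was 2 with DESeq2 factors (9.56% of all genes), 17 in AE (11.8%), 0 in VE (8.9%) and 1 over all cells (11%), and of genes higher, 0, was 1 in AE. For conflux AE over AE the WT ratio was -0.94 against Wnt-low AE and -0.72 against Wnt-high AE, and the SP3-null ratio -0.71 and -0.46, -0.63 without the 5 top genes and -0.71 with cells weighted alike. At 5000 UMIs 18 of 28 WT genes, in place of 30 of 39, were 1.5-fold lower. For IAC over AE the WT ratio was 0.63 without the deepest 5% of cells, 0.64 at 5000 UMIs, 0.45 against Wnt-low AE, 0.67 against Wnt-high AE and 0.69 with cells weighted alike, and the SP3-null ratio 0.78 at 5000 UMIs, 0.88 without the 5 top genes, 0.68 against Wnt-low AE and 0.94 against Wnt-high AE. At 5000 UMIs 16 of 27 SP3-null genes, in place of 26 of 38, were 1.5-fold higher. The replication-high difference, -2.14 points, was -0.382 at 3000 and -2.65 at 8000 UMIs per cell, -2.32 with at least 5 and -1.10 with at least 15 genes, -1.90 without the deepest 5% of cells, 0.582 in VE and -6.83 in AE. Of these, the intervals of the AE value and of the value with at least 5 genes left out 0. Scaling moved the median of all genes from -0.02 to -0.00. The causes were not tested.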
